A study of Homo sapiens with 15 samples.

Results

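The HOXB cluster is a run of homeobox genes on chromosome 17. Its 10 protein-coding members, HOXB1 to HOXB9 and HOXB13, were taken by gene symbol from the 58302 genes of the count tables, and all 10 were found. HOX genes encode transcription factors with a homeodomain, a DNA-binding fold, and they set position along the body axis in the embryo. Their order on the chromosome follows the order in which they are used from head to tail. HOXB13, the most posterior member, is known for its expression in the prostate, rectum and distal colon, and it is used in pathology as a marker of prostate origin.

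The study labelled RNA-seq libraries for 5 groups of 3 replicates. Only the C4-2B group, 3 libraries labelled wild type adenocarcinoma, was analysed here, and the DKD and ER groups labelled scr (control) or siPax5 (Pax5 knockdown), all neuroendocrine-like, were not analysed here. C4-2B is an established human prostate cancer line derived from LNCaP, grown in RPMI with fetal bovine serum and with no drug named in its labels. Enzalutamide exposure of this line gave the study's neuroendocrine-like C4-2BER cells. Comparisons between lines or after Pax5 depletion could therefore not be made, and the account is one of levels in a single, unperturbed line. The study's methods speak of independent replicates in general, but neither they nor the labels say that these 3 libraries came from separate cultures, so the spread between them may be technical.

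The libraries held 44992971, 49569026 and 46232076 counts in genes. Levels are given as TPM, the count divided by gene length and scaled so that all genes of a library have the same sum. The line was checked against markers first. All 5 luminal prostate genes listed (KLK3, KLK2, TMPRSS2, KRT8 and KRT18) lay between 197 and 1988 TPM, with summed levels of 2947 to 2977 TPM in the 3 libraries. The basal list (KRT5, KRT14, TP63) had 0 of 3 genes at 1 TPM in every library and sums of 0.787 to 0.998 TPM, with TP63 at 0 counts. Of the neuroendocrine list (CHGA, SYP, SNAP25), 2 of 3 genes reached that level and the sums were 2.47 to 3.04 TPM. The leukocyte genes PTPRC and CD3E had 2 and 4 counts in all, each in 1 library. In the stromal list, VIM (24.4% of its exon bases under other genes) and COL1A1 were at 20.2 and 7.09 TPM while DCN and COL1A2 had 0 counts, and the sums were 26.4 to 28.3 TPM.

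The cluster spans 200.7 kb of the GRCh38 assembly, from 48528526 (the HOXB1 end) to 48729178 (the HOXB13 end), and all 10 members are on the minus strand. HOXB1 to HOXB9 occupy the first 97.8 kb. A gap of 98406 bases then separates HOXB9 from HOXB13, into which the annotated far end of HOXB7 reaches as far as 48633572. Along with the members, the span holds 17 other annotated genes, among them the antisense transcripts HOXB-AS1 to HOXB-AS4, the microRNA genes MIR10A, MIR196A1 and MIR3185, and PRAC1 and PRAC2, small genes named for expression in prostate, rectum and colon. The microRNA sequences are given here because these genes lie inside the cluster and their counts are easily misread. In each mature sequence, as RefSeq gives it on GRCh38.p14, capitals mark the seed (bases 2 to 8), the part that pairs first with a target.
hsa-miR-10a-5p: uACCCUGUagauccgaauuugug
hsa-miR-196a-5p: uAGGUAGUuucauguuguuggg
hsa-miR-3185: aGAAGAAGgcggucggucugcgg
The mature sequences map to the minus strand at chr17:48579904-48579926, chr17:48632532-48632553 and chr17:48724446-48724468. No seed is shared among the 3. A HOXB8 exon holds a site that pairs with 21 of the 22 bases of miR-196a-5p and forms a wobble pair at the remaining base, position 5 of the microRNA. It lies in the HOXB8 3′ untranslated region at chr17:48612770-48612791 (minus strand), and capitals mark the bases in Watson-Crick pairing.
HOXB8 site: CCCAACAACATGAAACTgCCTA
The best site in any other member's exons paired at 14 of 22 bases. Over the transcripts of 62700 GENCODE genes, 2 genes (0.00319%) held a site of 21 or more paired bases, namely HOXB8 and HOXA10-AS. This is a match of letters and says nothing of regulation in these cells.

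To describe the cluster as a whole, the level of each member was compared across the libraries. HOXB13 was the most abundant member by far. It was at 243, 244 and 234 TPM in replicates 1, 2 and 3, with a mean of 241 ± 5.70 TPM (SD, n = 3). These values rest on 12231, 13492 and 11989 counts. Within each library HOXB13 was 18.0, 25.6 and 21.6 times HOXB7, the next member by mean level.

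HOXB13 (ENSG00000159184) lies at 48724763 to 48729178 and has 2 exon blocks of 3467 bases in all. Its mean ranked 426th of 58302 genes and 394th of 19708 protein-coding genes, so that 98.0% of protein-coding genes lay below it. It stood at 0.121 ± 0.00403 of the level of KLK3, the gene of prostate-specific antigen, in the same libraries (SD, n = 3). By mean level it also lay below the luminal genes KLK2, at 321 TPM, and KRT18, at 254 TPM. It lay above KRT8, at 197 TPM, and TMPRSS2, a luminal protease gene with no shared exon bases, at 201 ± 1.52 TPM. Other genes cover 7.63% of the exon bases of KRT8 and 16.3% of those of KRT18. Reads there were not counted, which limits the comparison with both. No HOXB13 exon base lies under another gene, so its count is free of that ambiguity.

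**Figure D1:**
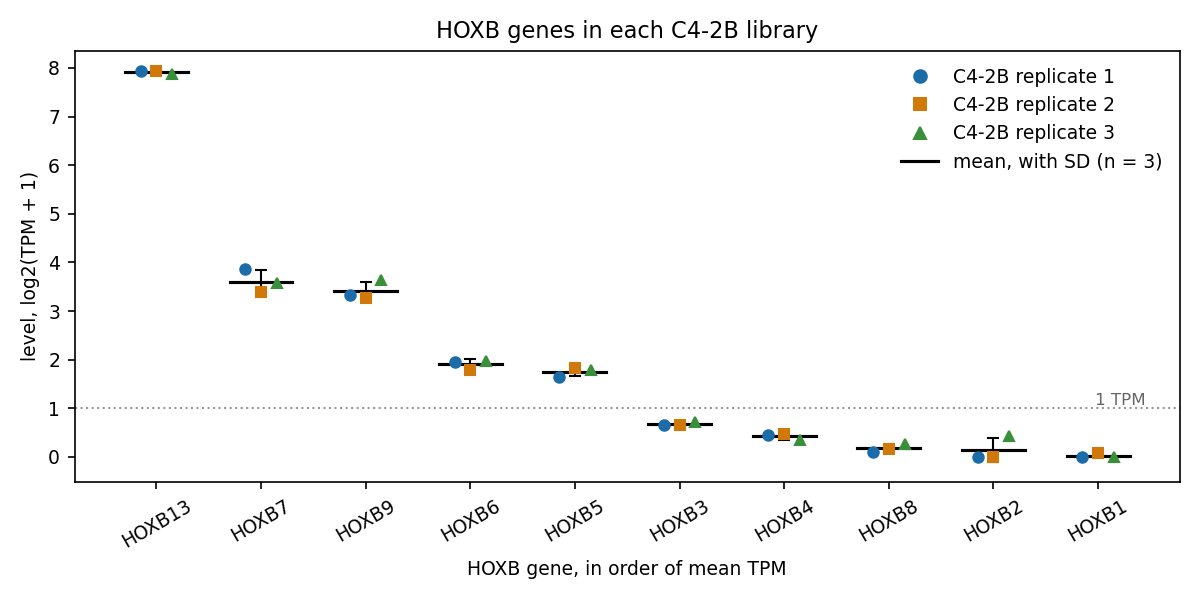
Level of each HOXB gene in the 3 C4-2B libraries as log2(TPM + 1), in order of mean TPM; symbols are libraries, black lines are means with SD (n = 3), and the dotted line marks 1 TPM. HOXB13 stands apart near 8, HOXB7 and HOXB9 overlap between 3 and 4, and 5 genes lie below 1 TPM.

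HOXB13 held 89.5%, 91.0% and 88.9% of the summed TPM of the cluster in replicates 1, 2 and 3, a mean of 89.8% ± 1.03 (SD, n = 3). The members together reached 268 ± 4.43 TPM, and without HOXB13 the other 9 reached 27.3 ± 2.61 TPM (SD, n = 3 each). Of that remainder, 76.7% ± 2.09 was HOXB7 and HOXB9 (SD, n = 3). As shares of raw counts, HOXB13 had 93.2% ± 0.714 of the reads in HOXB genes.

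Next in order came HOXB7 and HOXB9, posterior members of the main run of genes. HOXB7 (ENSG00000260027, 48607227 to 48633572) was at 13.5, 9.54 and 10.9 TPM, a mean of 11.3 ± 2.02 TPM (SD, n = 3). HOXB9 (ENSG00000170689, 48621159 to 48626356) was at 9.03, 8.64 and 11.4 TPM, a mean of 9.69 ± 1.48 TPM. Their ranges overlapped and HOXB7 was the higher of the pair in 2 of 3 libraries, so their order is not settled. The mean difference of 1.61 ± 2.57 TPM was smaller than its SD. By CPM, which takes no account of length, HOXB9 came before HOXB7 at 8.02 against 5.54 CPM.

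HOXB6 and HOXB5 formed the following step. HOXB6 (ENSG00000108511, 48595751 to 48604992) was at 2.89, 2.46 and 2.94 TPM, and HOXB5 (ENSG00000120075, 48591257 to 48593961) was at 2.13, 2.55 and 2.45 TPM. Their means were 2.76 ± 0.262 and 2.38 ± 0.222 TPM (SD, n = 3 each). At full gene length the ranges of these neighbours overlapped too, and replicate 2 reversed their order. HOXB9 was 3.51 times HOXB6 on average at that length, and their values did not overlap. Reads over exon bases shared with other genes, 32.9% for HOXB6 and 3.58% for HOXB5, were not counted. Over the bases outside other genes HOXB6 and HOXB5 lay further apart, at 3.93 ± 0.373 and 2.35 ± 0.220 TPM (SD, n = 3 each).

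Both HOXB3 and HOXB4 lay below 1 TPM in every library but were detected in each. HOXB3 (ENSG00000120093, 48548870 to 48604912) had 62, 68 and 70 counts and a mean of 0.594 ± 0.0360 TPM (SD, n = 3). HOXB4 (ENSG00000182742, 48575513 to 48580111), known for its role in blood stem cells, had 20, 23 and 15 counts and a mean of 0.341 ± 0.0616 TPM. HOXB3 was above HOXB4 in all 3 libraries, and HOXB5 was 4.01 times HOXB3 with no overlap.

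The remaining 3 members were close to the counting limit. HOXB8 (ENSG00000120068, 48611377 to 48614939), the gene with the miR-196a-5p site shown above, had 2, 4 and 6 counts, at 0.129 ± 0.0656 TPM (SD, n = 3). HOXB2 (ENSG00000173917, 48540894 to 48544989) had 0, 0 and 12 counts, and its mean of 0.116 TPM came down to 0 with replicate 3 left out. HOXB1 (ENSG00000120094, 48528526 to 48530997), which acts in the embryonic hindbrain, had 0, 2 and 0 counts. Since both reads of a pair could be counted, 12 counts may be as few as 6 fragments, for which the 95% exact Poisson interval runs from 2.20 to 13.1 fragments. In TPM that is 0.0475 to 0.282 for HOXB8 and 0.0417 to 0.247 for HOXB2, and these intervals overlap, so the pair cannot be ordered. The 2 counts of HOXB1 are below the 3 fragments taken as the detection limit, which equal 0.0537 TPM for its length. Such intervals and limits take 2 counts as 1 fragment and cover counting error only.

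At 1 TPM or more in every library there were 5 of the 10 members, HOXB5, HOXB6, HOXB7, HOXB9 and HOXB13. Over all genes of the tables the share at that level was 32.8%, and over protein-coding genes 61.2%. The 5 members are thus near the protein-coding background, and the count by itself sets the cluster apart from neither. The median over the 10 members was 1.49 TPM.

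**Figure D2:**
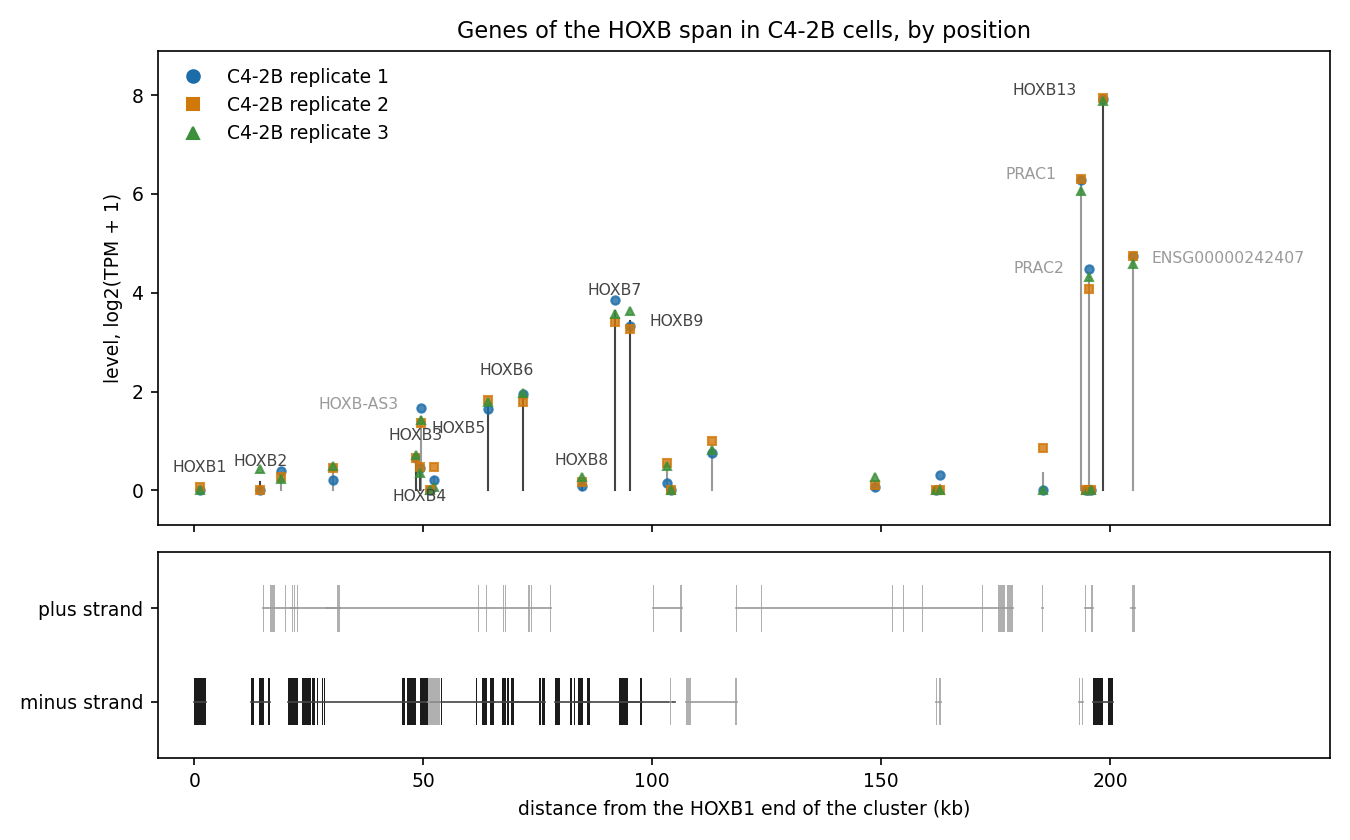
Genes within the HOXB span and the next gene beyond HOXB13, by distance from the HOXB1 end in kb. The upper panel gives log2(TPM + 1) at each gene's midpoint (symbols are libraries, lines reach the mean, members dark, other genes grey), and the lower panel gives exon blocks by strand; levels rise from HOXB1 towards HOXB7 and HOXB9, HOXB8 is the low exception, and the highest values cluster at the HOXB13 end.

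By position, levels were lowest at the HOXB1 end and highest at the HOXB13 end. Spearman's rho of position and mean TPM was 0.782 over the 10 members. Genes of one cluster measured in the same libraries are not independent points, so this value is a description. HOXB8 was the member farthest from this gradient, since it starts between HOXB7 and HOXB9 at 0.129 TPM, against 11.3 and 9.69 TPM for those neighbours. As annotated, HOXB8 and HOXB9 both lie within an intron of HOXB7 on the same strand. Any reads from that intron over their exons could not be told from their own.

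The genes around HOXB13 were examined next. PRAC1 (ENSG00000159182, minus strand) was at 77.2, 77.6 and 65.8 TPM and PRAC2 (ENSG00000229637, plus strand) at 21.4, 16.0 and 19.1 TPM. Their means were 73.5 ± 6.73 and 18.8 ± 2.73 TPM (SD, n = 3 each). HOXB13 was 3.29 ± 0.236 times PRAC1. PRAC2 runs towards HOXB13 on the opposite strand and ends 4 bases short of it. Of its exon bases, 41.7% lie under other annotated genes, where reads were not counted, and over the remaining bases it came to 30.8 ± 4.47 TPM. Counting did not use strand, so any reads from the HOXB13 strand over PRAC2 exons could not be told from its own. Together HOXB13, PRAC1 and PRAC2 held 91.4% ± 0.680 of the TPM of the 27 genes in the span (SD, n = 3).

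A long non-coding RNA gene, ENSG00000242407, starts 3912 bases beyond HOXB13 on the plus strand and was at 25.8, 25.7 and 22.9 TPM. It lies outside the span and was chosen after its values were seen. Farther on that side, TTLL6 was at 2.82 ± 0.0801, CALCOCO2 at 35.8 ± 0.394 and ATP5MC1 at 101 ± 2.65 TPM (SD, n = 3 each). On the HOXB1 side the nearest protein-coding gene, SKAP1, an adaptor gene of T cells, had 0 counts, which at a limit of 3 fragments allows up to 0.0501 TPM. Beyond it SNX11 and CBX1 were at 19.7 ± 1.14 and 113 ± 2.36 TPM. The nearest protein-coding flanks of the cluster were therefore at 0 counts on the HOXB1 side and at 2.82 TPM on the HOXB13 side.

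Of the 17 other genes in the span, 3 were at 1 TPM or more in every library, beside a share of 32.8% over all genes. These were PRAC1, PRAC2 and HOXB-AS3, a non-coding gene antisense to HOXB5 and HOXB6, at 2.16, 1.58 and 1.66 TPM. HOXB-AS1, HOXB-AS2 and HOXB-AS4 had 16, 12 and 10 counts over the 3 libraries. LINC03057, in the gap between HOXB9 and HOXB13, was at 0.813 ± 0.152 TPM and LINC02086 in the same gap at 0.115 ± 0.0837 TPM. A further 6 genes had 0 counts, and they include the 3 microRNA genes. Also among them, ENSG00000273750 and ENSG00000277542 have 99.2% and 98.8% of their bases under PRAC2 exons, where reads were not counted.

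The zeros of the microRNA genes do not all mean the same. MIR10A lies wholly within an exon of HOXB4 and of ENSG00000257178, and MIR3185 lies wholly within a PRAC2 exon on the other strand. Reads there overlap more than 1 gene and were not counted, so those zeros follow from the counting. In the deposited annotation HOXB4 ends at 48580111, past MIR10A, whereas in GENCODE release 44 it ends at 48578350. MIR196A1 lies in an intron of HOXB7 and shares no exon base, and its 0 counts allow, at a limit of 3 fragments, up to 1.90 TPM over its 70 bases. The libraries were not made for small RNA, so the mature forms shown above were not measured.

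Shared exons also bear on the members themselves. For HOXB6 32.9% of the exon sequence is shared with other genes, 433 bases under a HOXB3 exon on the same strand and 425 under HOXB-AS3 on the opposite strand. For HOXB4 the share was 17.1%, for HOXB3 13.2%, for HOXB2 3.72% and for HOXB5 3.58%. Reads over those bases were not counted, and HOXB1, HOXB7, HOXB8, HOXB9 and HOXB13 share none. Over the bases outside other genes, HOXB6 came to 3.93 ± 0.373 TPM and stayed between HOXB9 and HOXB5, HOXB2 and HOXB5 came to 0.115 and 2.35 TPM, and the order of all 10 members was the same. Counting did not use strand, so reads of a member and of a transcript from the opposite strand cannot be told apart.

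Near-identical copies elsewhere were looked for as well. Of all stretches of 50 bases in a member's exons, the share that also occurs in transcripts of genes outside the locus was 0 for 7 members. It was 0.0594% for HOXB13, 0.191% for HOXB3, in HOXD3, and for HOXB7 it was 20 of 1332 stretches, which occur in genes of other families. HOXD3 was the only HOX gene among those sharing a stretch with a member.

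To see how HOXB13 compares with its counterparts, the HOX13 genes of the other clusters were set beside it. HOXA13 was at 7.61, 6.29 and 7.23 TPM, HOXC13 at 14.2, 13.5 and 15.6 TPM and HOXD13 at 1.48, 1.96 and 1.90 TPM. HOXB13 was above each of them in 3 of 3 libraries. The mean difference on the log2(TPM + 1) scale was 4.91 ± 0.14 from HOXA13, 3.97 ± 0.13 from HOXC13 and 6.44 ± 0.16 from HOXD13 (SD, n = 3 each). In TPM the ratios of means were 34.2, 16.7 and 135. Exact two-sided permutation tests gave p = 0.1 for each of the 3 comparisons, 0.1 after Benjamini-Hochberg adjustment, which is the smallest p that 3 against 3 values allow and cannot pass 0.05. Genes measured in the same libraries are not replicates, so what these values show is a gap far wider than the spread between libraries.

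**Figure D3:**
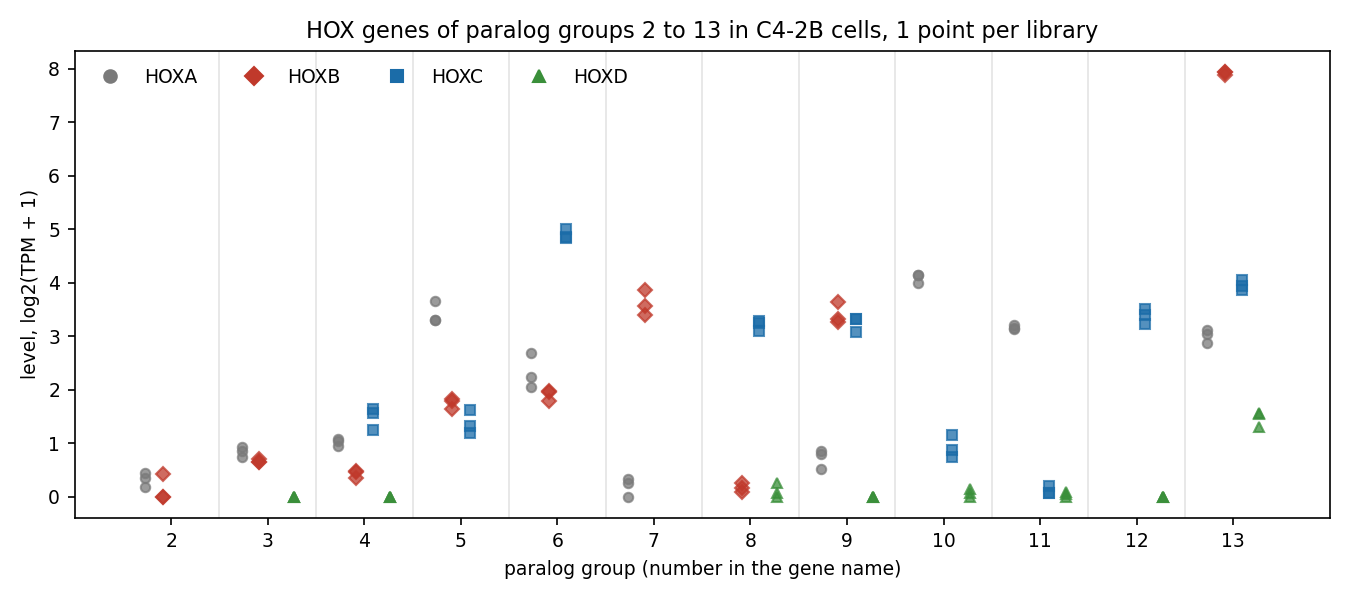
Level as log2(TPM + 1) of the HOX genes of paralog groups 2 to 13, 1 point per C4-2B library, with clusters by colour and symbol. HOXB13 lies near 8 while every other gene shown lies at or below about 5, and HOXB7 is the highest gene of group 7.

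HOXB13 alone held 61.3% ± 1.18 of the summed TPM of all 39 HOX genes (SD, n = 3). The next HOX gene was HOXC6 at 28.8 ± 1.97 TPM. By cluster, the sums were 268 ± 4.43 TPM for HOXB, 73.9 ± 0.392 for HOXC, 48.7 ± 4.38 for HOXA and 1.97 ± 0.306 for HOXD (SD, n = 3 each). With HOXB13 left out, the HOXB sum of 27.3 TPM lay below the full sums of HOXC and HOXA in every library. Those full sums kept their own HOX13 genes, HOXA13 at a mean of 7.04 TPM and HOXC13 at 14.4 TPM. They also kept genes of groups with no HOXB member, such as HOXA10 at 16.1 TPM and HOXC12 at 9.42 TPM. The comparison is therefore not one of like paralog groups and does not give the order of the clusters over shared groups. The cluster sums were not tested against each other. Exon bases shared with other genes, where reads were not counted, weigh on the sums and on the HOXB13 share. Among others, such bases make up 73.0% of HOXD3, 80.5% of HOXD4, 59.9% of HOXC5, 47.3% of HOXA4 and 32.9% of HOXB6. HOXB13 has none, and HOXD9 and HOXD12 also have none yet had 0 counts.

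Within paralog groups the HOXB member was not always the leading gene. HOXB7 at 11.3 TPM stood above HOXA7, which had 9, 0 and 7 counts and 62.5% of its exon bases under other genes. HOXB9 at 9.69 TPM and HOXC9 at 8.49 ± 0.895 TPM overlapped across libraries, while HOXA9 was at 0.649 TPM and HOXD9 had 0 counts. HOXB6 was below HOXC6 in every library, HOXB5 was below HOXA5, at 9.77 ± 1.55 TPM, and HOXB8 was below HOXC8, at 8.26 ± 0.580 TPM. HOXB4 and HOXB3 had lower means than HOXA4 and HOXA3, at 1.03 and 0.795 TPM. Of the members in paralog groups 2 to 13, HOXB13 and HOXB7 were thus those that lay above all of their paralogs in every library.

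HOX proteins bind DNA together with TALE homeodomain cofactors of the PBX, MEIS and PKNOX families, and MEIS proteins are known partners of HOXB13. Of the cofactor genes given here, PBX2 was highest at 29.7 ± 0.882 TPM, followed by PKNOX1 at 12.9 ± 0.870, PBX3 at 5.74 ± 0.386 and PBX4 at 5.23 ± 0.384 TPM (SD, n = 3 each). MEIS1 was at 2.03 ± 0.181 TPM. MEIS2 was at 0.0449 TPM, and MEIS3 and PKNOX2 at 0.401 and 0.814 TPM. None of these reached the level of HOXB13, and 15.1% of the exon sequence of PBX2 is shared with other genes, where reads were not counted.

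The spread between libraries was tested for each gene by a chi-square test of its 3 counts against the scaled library sizes. Each chi-square was divided by 2, because the mates of a read pair had been counted separately. Genes were tested where their counts came to 30 or more, and of these 22229 genes 176 (0.792%) passed a Benjamini-Hochberg adjusted p of 0.05. None of the 7 members tested was among them, and 3 members had an unadjusted p under 0.05, as did 11.3% of all genes tested (2503 genes). HOXB1, HOXB2 and HOXB8 had fewer than 30 counts and were not tested at this cut. With a cut of 10 counts, 9 members were tested and none passed. HOXB2, with 0, 0 and 12 counts, then had a chi-square adjusted p of 0.149.

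These 3 members were HOXB13, HOXB7 and HOXB9, and their extreme values lay in different libraries. HOXB13 was lowest in replicate 3, by a factor of 1.05 between the extreme libraries in CPM, with a chi-square adjusted p of 0.242. HOXB7 was highest in replicate 1, by a factor of 1.42 (adjusted p = 0.282), and HOXB9 was highest in replicate 3, by a factor of 1.31 (adjusted p = 0.294). Without the division by 2, HOXB13, HOXB7 and HOXB9 passed with adjusted p-values of 0.00202, 0.00378 and 0.00446, where 17.3% of all genes tested passed. The call for each therefore depends on how counting both mates is allowed for.

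**Figure D4:**
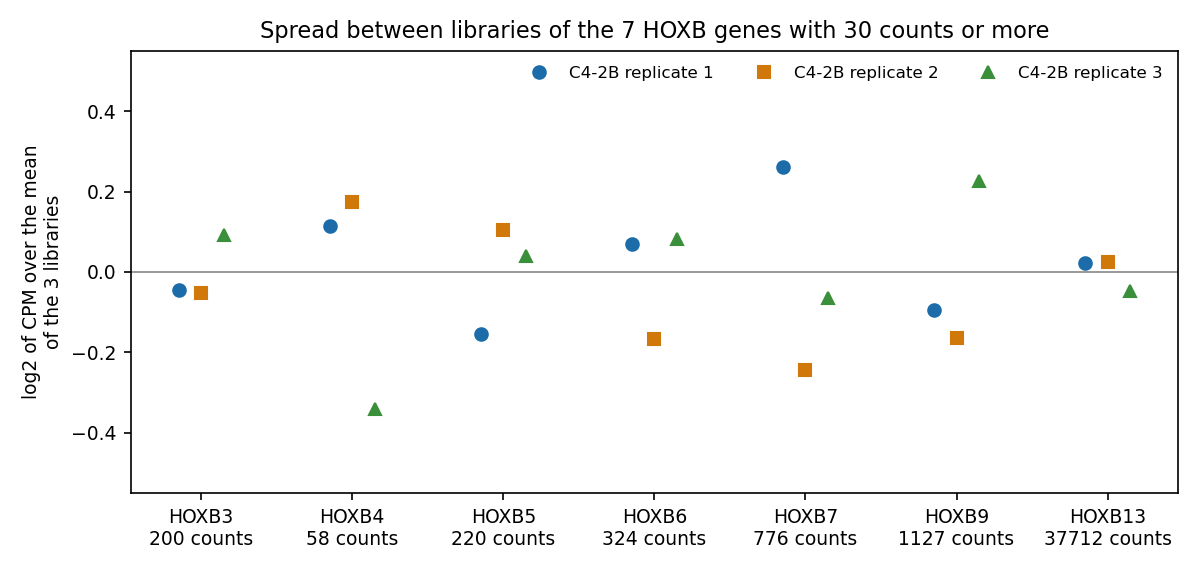
Deviation of each library from the mean of the 3, as log2 of CPM over mean CPM, for the 7 HOXB genes with at least 30 counts; symbols are libraries. HOXB13 stays within 0.05 of the mean, HOXB7 is highest in replicate 1 and HOXB9 in replicate 3.

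HOXB3, HOXB4, HOXB5 and HOXB6 had adjusted p-values from 0.895 to 0.978 in the same chi-square test, on 58 to 324 counts. The values of HOXB4 spanned a factor of 1.43 between its extreme libraries, as wide as HOXB7, but on 58 counts in all. The median distance from the lowest to the highest library was 0.26 (log2 of CPM) for the 7 members and 0.20 for all genes tested. No library was highest for all members, as HOXB5 and HOXB4 were highest in replicate 2 and HOXB3 and HOXB6 in replicate 3.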

How the data were processed

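Total RNA of C4-2B cells was depleted of ribosomal RNA, made into directional libraries and sequenced in pairs on a NextSeq 500. Per the labels, the authors aligned reads to GRCh38 with STAR 2.7.0f. They then ran featureCounts 1.6.3 with Ensembl release 90, which gave the unnormalized counts they deposited, with no option for strand, for pairs as fragments or for reads over several genes. Gene length, another value in the authors' files, is the union of exons and was checked against the exon coordinates for 58302 genes. Symbols were matched for 57532 identifiers, and gene types came from GENCODE release 44.

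TPM was scaled to every gene of the table. Library sizes were scaled by TMM in edgeR 4.0.16, and DESeq2 1.42.0 size factors were an alternative. Chi-square tests (2 degrees of freedom) and exact permutation tests were run in scipy 1.17.1. The chi-square test was tried on simulated data in which every fragment gave 2 counts, so those data could not check the divisor itself. The permutation test was checked on a small made-up set of values only. The members and lists were chosen with earlier results of these data known. Genes named are the members, the genes of the span, the 3 nearest protein-coding genes on each side, HOXA13, HOXC13, HOXD13 and the lists of cofactors, chromatin and upstream regulators, partners and markers. Other HOX genes and any further gene were named after their values were seen, and some genes of the lists are not reported here. No gene was named for likeness of pattern, since 3 libraries of 1 group give none. Promoter and protein sequences of the members were not used here.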

Additional observations from a re-analysis of the deposited data

How the results depend on the processing

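No paired analysis was possible between groups because C4-2B was the 1 group whose libraries were analysed here, and pairing needs another. HOXB13 and the other HOX13 genes were measured in the same libraries. Their mean differences and SDs were taken within libraries, but the permutation tests did not use that pairing. The summed level of the 10 members was 268 TPM, and it came to 257 TPM with lengths outside other genes, 388 TPM with the 10 most abundant and the mitochondrial genes left out of the denominator, and 287 in CPM, since each rescales every gene. The share of HOXB13 moved from 89.8% to 93.2% with CPM. The number of members at 1 TPM stayed at 5 under each setting run except CPM and a level of 0.5 TPM, which both added HOXB3. HOXB13 stayed above HOXA13, HOXC13 and HOXD13 under each setting run, with an exact permutation p that could not pass 0.05 in any.

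Without division of the chi-square, 3 members and 3835 genes differed between libraries, against 0 and 176. Leaving out 1 replicate gave 38 (without replicate 1) to 223 genes (without replicate 2), with 44 without replicate 3 and 0 members in each. The mean of HOXB1 fell from 0.0169 to 0 TPM without replicate 2 and that of HOXB2 from 0.116 to 0 without replicate 3. HOXB2 stood above HOXB8 without replicate 1 or 2 and in CPM. For the members below 1 TPM, depth limits what can be ordered.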

Other observations

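All 16 chromatin regulators listed were at 1 TPM or more in every library, against 61.2% of protein-coding genes and 32.8% of all genes. They are genes of the Polycomb group, which represses HOX genes, the KMT2 and KDM6 enzymes that oppose it, MEN1, whose product works with KMT2A, and the insulator protein CTCF. CBX7, a reader of the Polycomb mark, was at 12.1 ± 0.121 TPM (SD, n = 3). KDM6A, a demethylase of that mark, was at 184 ± 3.45 TPM and EZH2, which writes that mark, at 60.8 ± 2.11 TPM. KMT2A and KMT2D were at 41.8 ± 0.646 and 62.1 ± 0.142 TPM. CBX7 and BMI1 have 21.6% and 23.3% of their exon bases under other genes, where reads were not counted.

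Among 11 genes of the retinoic acid and CDX pathways, which set HOX expression in the embryo, 5 were at 1 TPM or more in every library, beside 61.2% of protein-coding genes. They were the receptors RXRA at 49.7 ± 1.27, RXRB at 32.4 ± 0.686, RARG at 27.7 ± 0.712, RARA at 12.1 ± 0.637 (17.9% of exon bases shared) and RARB at 7.34 ± 0.394 TPM (SD, n = 3 each). RXRG and CDX4 had 0 counts, CDX1 had 1 count and CDX2 was at 0.330 ± 0.0756 TPM. CYP26A1 and CYP26B1, enzymes that break down retinoic acid, were at 0.945 ± 0.273 and 0.238 ± 0.107 TPM.

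A list of 5 possible partners of HOXB13, drawn up for this work, was at 1 TPM or more throughout, 5 of 5 against that same 61.2%. HDAC1 was at 183 ± 3.01 TPM, NCOR1 at 45.7 ± 1.76, SKP1 at 42.2 ± 1.01, HDAC3 at 40.8 ± 2.11 and ETS2 at 5.41 ± 0.395 TPM (SD, n = 3 each). None of the cofactor, regulator, retinoic acid and CDX, or partner genes passed the chi-square test between libraries with the division by 2, a count that carries little information where 0.792% of all genes tested passed.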
